A study of Mus musculus with 6 samples.

Results

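The 10 genes described here encode transcription factors of the melanocyte lineage and their nearest relatives. They are the MITF family (Mitf, Tfe3, Tfeb and Tfec), Pax3, Irf4, Lef1 and the AP-2 genes Tfap2a, Tfap2b and Tfap2c. They were taken by name from 22180 genes with a probe set that carries exactly 1 gene symbol, and each had 1 such probe set. Expression was measured on 6 one-colour Affymetrix arrays of immortalised melanocyte lines of the mouse, 3 of a line that carries LacZ in 1 of its Sox10 alleles (Sox10 LacZ/+; Ink4a-Arf null) and 3 of melan-Ink4a-Arf-1, the wild-type control line, which the labels also call melan-a and whose Cdkn2a genotype they give as tm1RDp/tm1RDp. Both lines lack Ink4a-Arf, the product of Cdkn2a, and both come from mice backcrossed to C57BL/6J. The LacZ/+ line was derived from mice aged 3 days; the labels give no age for the wild-type line. The medium of both lines held 10% serum, a phorbol ester (200 nM) and cholera toxin (200 pM), which raises cAMP, and the air held 10% CO2. With 1 line for each genotype, an effect of the allele and a difference between lines cannot be told apart, and nothing in the labels says that the arrays of a line are separate cultures, so a p-value covers the spread between arrays, which may be technical.

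MITF is the master regulator of pigment cells. With its relatives TFE3, TFEB and TFEC it forms homodimers and heterodimers of basic helix-loop-helix leucine zipper proteins that bind E-boxes in the promoters of pigment and lysosome genes. In melanocytes Mitf is transcribed from a promoter of its own, the M promoter, which is bound by SOX10, PAX3, LEF1 and the cAMP-responsive factor CREB. MITF and TFAP2A act together on an enhancer of the IRF4 gene, and IRF4 acts with MITF on the tyrosinase gene. The AP-2 factors act in neural crest and melanocyte differentiation.

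Pigment genes that define melanocytes were bright in both lines. Tyrp1 averaged 12.89 in LacZ/+ and 12.95 in wild-type cells, and Pmel 12.85 in LacZ/+ and 12.63 in wild-type cells, on the log2 scale of the array. Of the 8 melanocyte markers 3 passed: Kit, the receptor gene of melanoblast survival, at 10.90 in LacZ/+ and 8.61 in wild-type cells (2.29, adjusted p 0.00092), was higher, and Tyr (−2.10) and Dct (−0.68) were lower in LacZ/+ cells. The summed level of the 8 markers lay between 14.94 and 14.96 in LacZ/+ and between 14.98 and 15.19 in wild-type arrays. Fibroblast markers differed between the lines, with a summed level of 11.75 to 11.80 in LacZ/+ against 8.66 to 8.85 in wild-type arrays. Dcn (10.80 in LacZ/+ and 4.88 in wild-type cells), Pdgfrb (10.35 and 6.27) and Col1a2 (7.60 and 6.35) were the 3 of 7 that passed. Col1a2 lies on chromosome 6, where more genes were higher in LacZ/+ cells than on other chromosomes. Col1a1 was at 6.84 in LacZ/+ and 7.04 in wild-type cells (−0.20, limma, adjusted p 0.14). Col3a1, Lum and Pdgfra were at 5.86, 3.54 and 5.21 in LacZ/+ cells and at 5.75, 3.64 and 5.06 in wild-type cells. Of 4 measured Schwann cell markers S100b and Pmp22 passed, both lower in LacZ/+ cells. S100b was at 5.15 in LacZ/+ and 7.85 in wild-type cells (−2.70, limma, adjusted p 7.04e-06), and Pmp22 differed by −0.42 (adjusted p 0.0234). Gfap did not pass (−0.36, adjusted p 0.0566), but did so without wild-type replicate 2 (−0.44, adjusted p 0.0106). Mbp (−0.12, adjusted p 0.421) passed in neither setting. The summed level of the 4 markers was 10.56 to 10.62 in LacZ/+ against 10.99 to 11.24 in wild-type arrays. Of 6 measured keratinocyte markers 0 passed by limma and 2 had an unadjusted p below 0.05, as did 24.9% of all genes. The 2 were Cdh1 (0.38, adjusted p 0.0632) and the dim Dsp (−0.41, adjusted p 0.0784). Without wild-type replicate 2, Cdh1 differed by 0.48 and passed (adjusted p 0.0101). The summed level of the 6 markers was 8.21 to 8.33 in LacZ/+ and 8.14 to 8.32 in wild-type arrays. Those that passed were 3 of 8 melanocyte, 3 of 7 fibroblast, 2 of 4 Schwann cell and 0 of 6 keratinocyte markers. Among all genes 13.4% passed, and among genes brighter than the 40th percentile of all probe sets 18.7% did. With lists of 4 to 8 genes, the counts were not compared with these shares by a test. The part of these markers in the results below was not tested. Sox10 itself averaged 9.73 ± 0.05 in LacZ/+ and 9.91 ± 0.10 in wild-type cells (SD, n = 3 each), a log2 difference of −0.18 that did not pass (limma, adjusted p 0.213). Cdkn2a averaged 7.07 ± 0.08 in LacZ/+ and 7.16 ± 0.12 in wild-type cells (SD, n = 3 each; −0.09, adjusted p 0.61), and the files do not say which part of the gene the probe set reads. Wild-type replicate 2 stood apart, with 261 genes that differed 2-fold or more from the average of its 2 fellow replicates, against at most 54 for any other array. Of the 10 transcription factor genes, Tfap2b was such a gene.

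Of the 10 genes, Tfec and Mitf were higher and Irf4 was lower in the LacZ/+ line, and 7 did not pass (limma with Benjamini-Hochberg adjustment across all 22180 genes, threshold 0.05). Among all genes 13.4% passed, 7.46% higher and 5.92% lower. Tfec and Irf4 passed with a difference above 2-fold, as did 3.53% of all genes. For 5 of the 10 (Mitf, Tfec, Pax3, Irf4 and Tfap2b) the LacZ/+ and wild-type values did not overlap, as for 31.6% of all genes. The median log2 difference (LacZ/+ minus wild type) was −0.08 over the 10 genes and 0.001 over all genes. The smallest p that an exact permutation test of 3 against 3 arrays allows is 0.1. Groups that do not overlap always give it, so for these 5 genes it adds nothing to the lack of overlap.

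**Figure D1:**
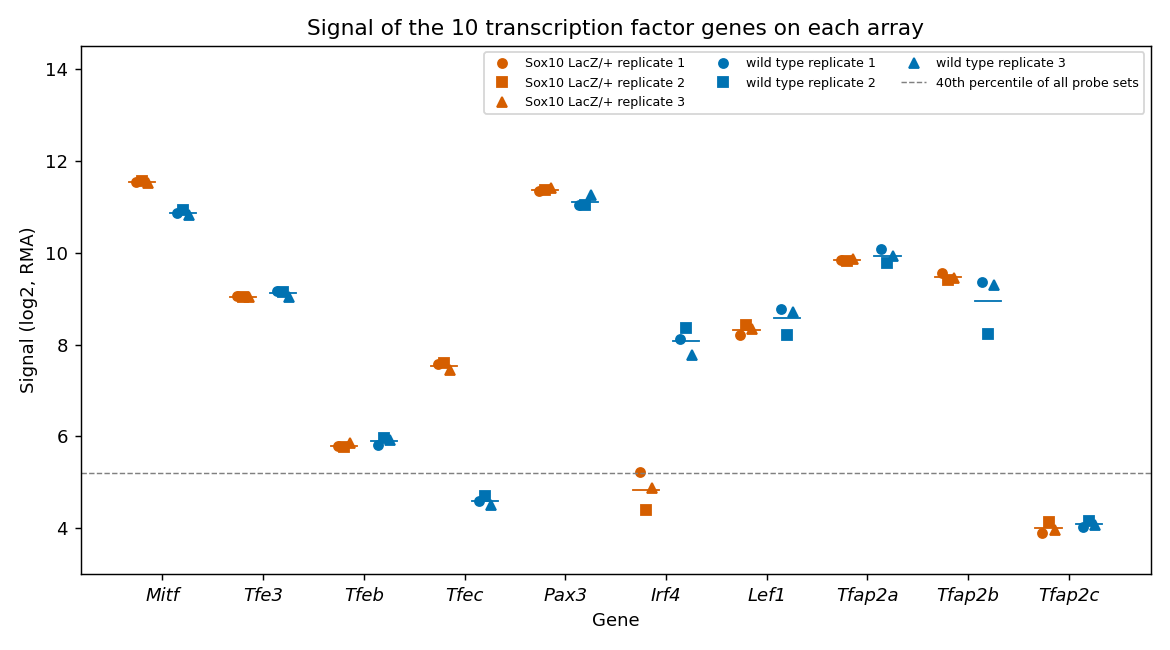
Signal of each of the 10 genes (log2, vertical axis) on each array, LacZ/+ in orange to the left of wild type in blue, with a bar at the mean of 3 arrays and a dashed line at the 40th percentile of all probe sets. Tfec lies above the line only in LacZ/+ cells, Irf4 lies well above it only in wild-type cells, and wild-type replicate 2 (square) is the low array for Tfap2b. Heights compare arrays of 1 gene, not different genes.

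Mitf, Tfec and Irf4 have windows from 250 bases before to 50 bases after a transcript start in RefSeq (GRCm38.p6), and those of the 3 genes that passed are shown so that the letters near their starts can be read beside their levels. Of 3 Mitf windows the most downstream is printed, since the M promoter lies downstream of the other starts. Capitals mark matches, on either strand, to motifs of factors treated here: the cAMP response element TGACGTCA, the E-box CATGTG and the second E-box form CACGTG, the LEF and TCF motif CTTTGAT, the SOX motif ACAAAG and its other form ACAATG, the homeodomain motif TAATTA for factors such as PAX3, and the AP-2 motif GCCNNNGGC.
Mitf, chr6:97991533-97991832, plus strand: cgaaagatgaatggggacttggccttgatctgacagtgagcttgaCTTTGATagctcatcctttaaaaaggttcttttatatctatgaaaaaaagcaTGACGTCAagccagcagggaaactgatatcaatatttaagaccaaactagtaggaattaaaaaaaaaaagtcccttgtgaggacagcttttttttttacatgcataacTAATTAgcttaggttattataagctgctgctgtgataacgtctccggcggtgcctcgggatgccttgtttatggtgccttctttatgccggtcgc
Tfec, chr6:16898392-16898691, minus strand: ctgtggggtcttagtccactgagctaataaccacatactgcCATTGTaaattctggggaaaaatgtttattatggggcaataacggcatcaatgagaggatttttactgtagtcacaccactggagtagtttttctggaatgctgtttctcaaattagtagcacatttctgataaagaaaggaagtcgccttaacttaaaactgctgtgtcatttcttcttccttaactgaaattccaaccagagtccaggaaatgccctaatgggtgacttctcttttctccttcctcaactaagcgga
Irf4, chr13:30748983-30749282, plus strand: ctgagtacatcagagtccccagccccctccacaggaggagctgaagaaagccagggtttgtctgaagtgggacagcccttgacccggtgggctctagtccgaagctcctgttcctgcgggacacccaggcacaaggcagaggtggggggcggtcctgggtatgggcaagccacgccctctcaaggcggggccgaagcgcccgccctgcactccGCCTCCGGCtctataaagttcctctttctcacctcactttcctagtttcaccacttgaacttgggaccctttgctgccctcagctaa
The Mitf window held CTTTGAT beginning at −205, TGACGTCA at −153 and TAATTA at −45 from the transcript start, with no overlap between them. Among 32851 windows of the same length, 3.73% held CTTTGAT, 1.79% held TGACGTCA and 5.29% held TAATTA. The Tfec window held 1 match, to ACAATG on the other strand (12.6% of windows), and the Irf4 window held 1 match to GCCNNNGGC (16.6%). The E-boxes occurred in 14.2% (CATGTG) and 7.15% (CACGTG) of windows and ACAAAG in 18.7%. Of the Mitf windows not printed, the most upstream held 0 matches and the other held 1, to GCCNNNGGC. A match describes letters only and is not evidence of binding. Windows were listed for 8 of the 10 genes, 17 in all, and not for Pax3 and Tfap2c.

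Mitf (Entrez 17342; chromosome 6, 97807002 to 98021360, GRCm38.p6) was bright in both lines. Its signal was 11.53, 11.56 and 11.53 in LacZ/+ arrays, against 10.87, 10.92 and 10.81 in wild-type arrays. The groups did not overlap, and the LacZ/+ arrays spanned a range of 0.04. The log2 difference was 0.67 (SE 0.07, 95% interval 0.51 to 0.83, adjusted p 0.000439), or 1.59-fold higher in LacZ/+ cells. It passed with any single array left out (limma, adjusted p 0.000424 to 0.0042). The files do not say which transcripts of its several starts the probe set reads, so the melanocyte form and the others cannot be told apart.

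Chromosome 6, where both Mitf and Tfec lie, held more genes that were higher in LacZ/+ cells than the other chromosomes did. Of its 1201 genes 20.6% were higher and 2.91% lower in LacZ/+ cells, against 6.72% and 6.11% of genes on other chromosomes. The median log2 difference was 0.08 over all its genes and 0.24 over its 710 genes brighter than the 40th percentile of all probe sets, against 0.002 for such genes elsewhere. Of these 710 genes 82 had a larger difference than Mitf. Among the 100 genes nearest to Mitf in order along the chromosome (50 on each side), 31 were higher and 1 was lower, with a median of 0.12 over all and 0.24 over the 71 brighter ones. The nearest measured gene at lower coordinates, Frmd4b, rose by 0.58 (adjusted p 0.00374), and the nearest at higher coordinates, the dim Gm765, differed by 0.09 (adjusted p 0.743). The next brighter genes below Frmd4b, Uba3 (0.02), Tmf1 (0.02), Eogt (−0.004) and Tafa4 (0.02), did not pass. The brighter gene below these, Suclg2, passed and rose by 1.74, more than Mitf. The first brighter genes at higher coordinates, Foxp1 and then Eif4e3, passed and rose by 0.41 and 1.75. Whether Mitf passed relative to its chromosome depended on how the chromosome was summarised. With the median shift of the brighter chromosome 6 genes taken off each array (each gene first centred on its own mean, an offset of 0.23 between the lines), Mitf differed by 0.44 (SE 0.07) and passed (limma, adjusted p 0.00426). With the median level of the same genes taken off, an offset of 0.43 that exceeds their median difference, it differed by 0.25 (SE 0.07) and did not pass (adjusted p 0.0565). With the median level of all chromosome 6 genes taken off (an offset of 0.09) it differed by 0.58 and passed (adjusted p 0.00127). The first and second of these settings were chosen after the data were seen. The cause of the higher values on chromosome 6 was not tested, and a shift of the chromosome and an effect of the Sox10 allele on Mitf cannot be told apart with 1 line per genotype.

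**Figure D2:**
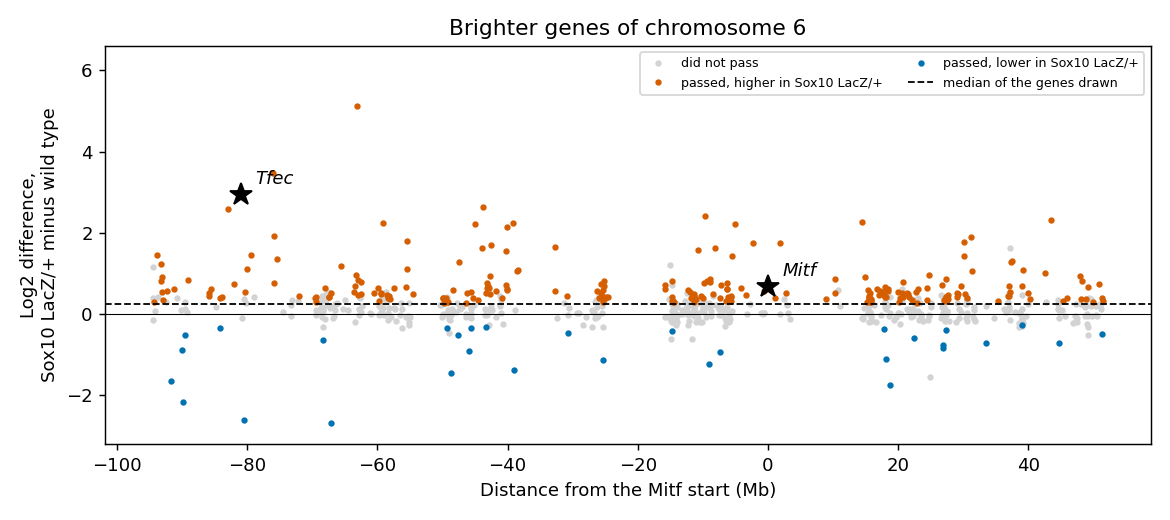
Log2 difference (LacZ/+ minus wild type, vertical axis) of the 710 brighter genes of chromosome 6 against distance from the Mitf start in megabases, orange for passed and higher, blue for passed and lower, grey for not passed, with a dashed line at their median of 0.24. Stars mark Mitf (0.67), which lies within the cloud of higher genes, and Tfec (2.93), which lies above nearly all of them.

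Tfec (Entrez 21426; chromosome 6, 16830927 to 16898464) encodes the family member best known from macrophages. Its signal was 7.57, 7.60 and 7.44 in LacZ/+ arrays, against 4.60, 4.70 and 4.51 in wild-type arrays. The 40th percentile of all probe sets was 5.20, and all wild-type arrays lay under it and all LacZ/+ arrays far above it. The log2 difference was 2.93 (SE 0.08, 95% interval 2.74 to 3.13, adjusted p 3.12e-07), a 7.64-fold rise whose size depends on the array background because the wild-type signal is dim. On chromosome 6, 2 of 1201 genes had a larger difference. Relative to the median shift of the brighter chromosome 6 genes it differed by 2.70 (SE 0.08, adjusted p 3.08e-07), and relative to their median level by 2.51 (adjusted p 1.73e-07). Of its 100 nearest genes 29 were higher and 6 lower, with a median of 0.13 over all and 0.41 over the 53 brighter ones. The neighbours were Mdfic, which rose by 0.74 (adjusted p 0.00113), and the dim Gm15473, which differed by −0.004 (adjusted p 0.987). Of 5 measured leukocyte markers 1 passed, beside 13.4% of all genes and 18.7% of brighter genes. A list of 5 is too short to set 1 call apart from these shares. The gene that passed was Cd68, a lysosomal membrane protein gene, at 8.46 in LacZ/+ and 7.14 in wild-type cells. The summed level of the 5 markers was 8.85 to 9.0 in LacZ/+ and 8.15 to 8.38 in wild-type arrays. Ptprc, the pan-leukocyte gene, was dim in both lines, at 4.0 in LacZ/+ and 3.91 in wild-type cells, as was Itgam at 5.19 in each. Lyz2, a myeloid lysozyme gene, was at 5.79 in LacZ/+ and 6.22 in wild-type cells (−0.42, adjusted p 0.34; −0.74, adjusted p 0.00122, without wild-type replicate 2), and the T cell gene Cd3e at 4.78 in LacZ/+ and 5.13 in wild-type cells (−0.35, adjusted p 0.0517).

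Tfe3 and Tfeb, widely expressed relatives that drive lysosome and autophagy genes, did not pass. Tfe3 (Entrez 209446; chromosome X, 7762530 to 7775202) gave 9.06, 9.03 and 9.03 in LacZ/+ arrays and 9.16, 9.14 and 9.04 in wild-type arrays, and the groups overlapped. The difference was −0.08 (95% interval −0.24 to 0.09, adjusted p 0.591), beside a median of −0.03 for the 440 brighter genes of the X chromosome. Tfeb (Entrez 21425; chromosome 17, 47737037 to 47792416) gave 5.80, 5.76 and 5.85 in LacZ/+ arrays and 5.81, 5.97 and 5.93 in wild-type arrays, again with overlap. Its difference was −0.10 (95% interval −0.27 to 0.07, adjusted p 0.486). Both intervals leave out a 2-fold difference in either direction.

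Irf4 (Entrez 16364; chromosome 13, 30749233 to 30766981) encodes an interferon regulatory factor that in melanocytes is a target and partner of MITF. Its signal was 5.22, 4.40 and 4.88 in LacZ/+ arrays, against 8.13, 8.35 and 7.77 in wild-type arrays. The groups were separated by a gap of 2.55 log2 units, and 2 of the 3 LacZ/+ arrays lay below the 40th percentile. The log2 difference was −3.25 (SE 0.22, 95% interval −3.75 to −2.75, adjusted p 3.7e-05), so that the wild-type signal was 9.52-fold that of LacZ/+ cells, a ratio that depends on the background of the dim arrays. Irf4 passed with any single array left out (adjusted p 0.000102 to 0.000736). The median of brighter chromosome 13 genes was 0.002.

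**Figure D3:**
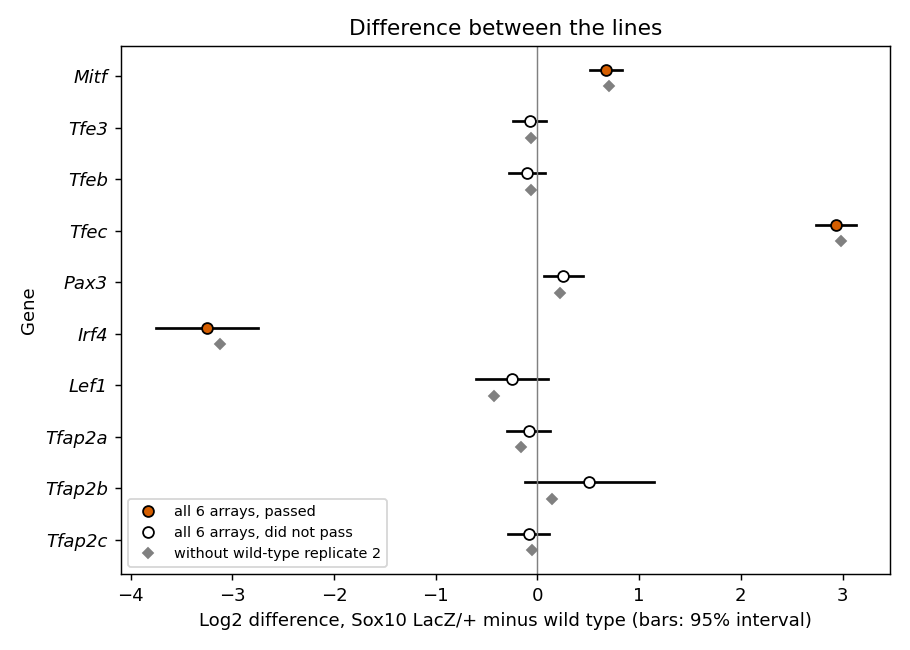
Log2 difference of each gene (LacZ/+ minus wild type, horizontal axis) with its 95% interval from limma, filled where the gene passed and open where it did not, and grey diamonds for the same difference without wild-type replicate 2. Tfec (2.93), Mitf (0.67) and Irf4 (−3.25) stand clear of 0, Lef1 shifts to −0.43 and Tfap2b to 0.14 without that array.

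Pax3 (Entrez 18505; chromosome 1, 78101267 to 78197136) encodes a paired-box factor of melanoblasts that acts upstream of Mitf. It was bright, at 11.35, 11.36 and 11.40 in LacZ/+ arrays and 11.04, 11.04 and 11.25 in wild-type arrays. The groups did not overlap, but wild-type replicate 3 lay only 0.10 below the lowest LacZ/+ array. The difference of 0.26 (SE 0.08, unadjusted p 0.0154) did not pass over all genes (limma, adjusted p 0.0908), and did so without wild-type replicate 3 (0.33, adjusted p 0.0341).

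Lef1 (Entrez 16842; chromosome 3, 131110297 to 131224357) encodes a nuclear partner of beta-catenin in Wnt signalling. Its signal was 8.20, 8.43 and 8.33 in LacZ/+ arrays and 8.78, 8.21 and 8.72 in wild-type arrays. Wild-type replicate 2 lay among the LacZ/+ arrays and the other wild-type arrays lay above all of them. With all arrays the difference was −0.25 (SE 0.15, adjusted p 0.382), and without wild-type replicate 2 it was −0.43 (SE 0.09, adjusted p 0.0147), so whether it passed depended on that array.

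Among the AP-2 genes, Tfap2a (Entrez 21418; chromosome 13, 40713802 to 40738238), a regulator of neural crest and pigment genes, gave 9.85, 9.81 and 9.86 in LacZ/+ arrays and 10.07, 9.78 and 9.93 in wild-type arrays. The groups overlapped and the difference was −0.09 (95% interval −0.29 to 0.12, adjusted p 0.638). Tfap2b (Entrez 21419; chromosome 1, 19208908 to 19238845), which is expressed in neural crest derivatives, gave 9.55, 9.41 and 9.44 in LacZ/+ arrays and 9.36, 8.22 and 9.29 in wild-type arrays. On wild-type replicate 2 it was 1.11 lower than on average on the other wild-type arrays. The difference was 0.51 (95% interval −0.12 to 1.14, adjusted p 0.306) with it and 0.14 (adjusted p 0.268) without it. Tfap2c (Entrez 21420; chromosome 2, 172545678 to 172558622), known from trophoblast and germ cells, was dim on every array, at 3.90, 4.14 and 3.96 in LacZ/+ arrays and 4.02, 4.15 and 4.08 in wild-type arrays. Its difference was −0.08 (adjusted p 0.637), and a dim probe set may understate a change.

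Over the 6 arrays the genes whose profile was most like that of Mitf were Cd109 (Pearson r 0.9995), Jcad (0.9991), Slc24a3 (0.9990), St3gal4 (0.9990) and Prkaa2 (0.9989), none of them on chromosome 6. The arrays fall into 2 lines, so these coefficients mainly carry the gap between the lines, and they are given as a description. All 5 passed and were higher in LacZ/+ cells, by between 0.82 (St3gal4) and 3.83 (Slc24a3).

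Genes around the factors were read as 9 lists. Of 14 known pigment targets of MITF 13 were measured, of which 2 rose, 5 fell and 6 did not pass. The measured targets were all brighter genes, and 53.8% passed, beside 13.4% of all genes and 18.7% of brighter genes. The falls were in Tyr, the rate-limiting melanin enzyme (−2.10, SE 0.12, adjusted p 1.28e-05), Gpr143 (−1.0, adjusted p 0.01), a melanosomal receptor gene, Oca2 (−0.88, adjusted p 0.000382), a melanosomal channel gene, Dct (−0.68, adjusted p 0.000404), a melanin enzyme gene, and Mc1r (−0.41, adjusted p 0.0237), the melanocortin receptor gene. Trpm1, a cation channel gene, rose by 1.14 and Rab27a, a gene of melanosome transport, by 0.74 (adjusted p 0.00612 and 0.0216). Tyrp1 (−0.05) and Pmel (0.22) did not pass, and the list median was −0.17. Leaving out wild-type replicate 2 gave 4 higher and 5 lower, beside 19.0% of all genes that passed then. Rab27a and Mc1r lost their calls with any other single array left out (adjusted p up to 0.0854 and 0.0959).

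Of 12 measured MITF targets outside pigmentation 4 rose, 2 fell and 6 did not pass (median 0.18). All 12 were brighter genes, and the 6 of 12 that passed stood beside 13.4% of all genes and 18.7% of brighter genes. Ppargc1a, a coactivator gene of mitochondrial biogenesis, averaged 9.40 ± 0.08 in LacZ/+ and 6.69 ± 0.69 in wild-type cells (SD, n = 3 each) and rose by 2.71 (adjusted p 0.000567). Ctsk, a protease gene that MITF activates in osteoclasts, rose by 2.30, Hif1a, a hypoxia factor gene, by 0.55, and the receptor gene Met by 0.53 (adjusted p 9.47e-07, 0.00218 and 0.00974). Met lies on chromosome 6 and differed by 0.30 relative to the median shift of the brighter genes there (adjusted p 0.04) but by 0.11 relative to their median level (adjusted p 0.482); it also lost its call without LacZ/+ replicate 3 (adjusted p 0.0501). Ednrb, the endothelin receptor gene of melanoblasts, fell by 3.68 and the cell cycle inhibitor gene Cdkn1a by 0.89 (adjusted p 3.97e-06 and 9.95e-05). Leaving out wild-type replicate 2 gave 5 higher and 4 lower, beside 19.0% of all genes that passed then.

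Of 12 measured regulators of Mitf transcription 2 rose, 2 fell and 8 did not pass (median −0.04). Of the list 33.3% passed, beside 13.4% of all genes and 18.7% of brighter genes. Leaving out wild-type replicate 2 gave 3 higher and 2 lower, beside 19.0% of all genes that passed then. Pou3f2 (0.55, adjusted p 0.023) and Sox5 (0.39, adjusted p 0.00993) rose, genes whose products can repress Mitf or pigment genes. Foxd3, a gene of a neural crest factor that represses Mitf, fell by 0.58 (adjusted p 0.0176), and Mc1r, which is also among the pigment targets, fell as given there. Sox5 lies on chromosome 6 and passed in neither setting relative to the brighter genes there, with 0.16 against their median shift (adjusted p 0.174) and −0.03 against their median level (adjusted p 0.825). Creb1 (0.22) and Ctnnb1 (−0.03) did not pass. Foxd3 and Pou3f2 lost their calls with any array other than wild-type replicate 2 left out (adjusted p up to 0.0779 and 0.0973), and Sox5 without LacZ/+ replicate 1 (0.0513). Of 18 measured genes that hold MITF and TFE proteins in the cytoplasm or release them, 2 rose and 1 fell: Rragc (0.30, adjusted p 0.0293), a Rag GTPase gene, and the Ragulator genes Lamtor1 (0.26, adjusted p 0.0408) and Lamtor4 (−0.49, adjusted p 0.0466). Flcn (0.02), the folliculin gene, did not pass, and the list median was 0.05. The 16.7% of this list that passed stood beside 13.4% of all genes and 18.7% of brighter genes. Each of the 3 calls was lost without any 1 of the LacZ/+ arrays or wild-type replicate 1. Adjusted p then rose up to 0.113 for Rragc, 0.161 for Lamtor1 and 0.156 for Lamtor4. Leaving out wild-type replicate 2 gave 4 higher and 1 lower, beside 19.0% of all genes that passed then. Rragd (0.81, adjusted p 0.000987) and Fnip2 (0.54, adjusted p 0.00233) passed in that setting and did not pass with all arrays.

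Of 23 measured lysosome and autophagy targets of TFEB and TFE3 3 rose, 2 fell and 18 did not pass, with a median of −0.02. The 21.7% that passed stood beside 13.4% of all genes and 18.7% of brighter genes. The sulfatase gene Sgsh rose by 1.32, the autophagy gene Uvrag by 0.64 and the protease gene Ctsd by 0.40 (adjusted p 3.28e-05, 0.000778 and 0.00968), and the autophagy gene Wipi1 fell by 0.38 and Cln3 by 0.40 (adjusted p 0.0182 and 0.0389). Lamp1 (−0.06) and Mcoln1 (−0.04), genes of lysosomal membrane proteins, did not pass. Leaving out wild-type replicate 2 gave 3 higher and 5 lower, beside 19.0% of all genes that passed then. Wipi1 and Cln3 lost their calls with any other single array left out, and Ctsd without LacZ/+ replicate 3 (adjusted p up to 0.0821, 0.146 and 0.052).

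**Figure D4:**
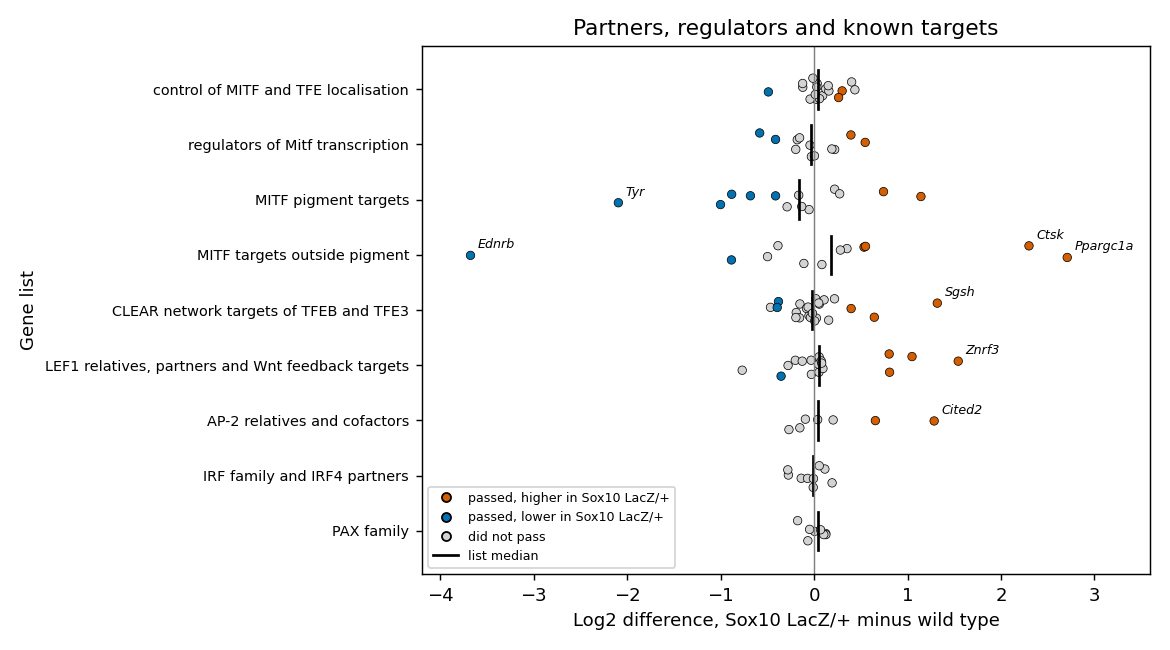
Log2 difference (LacZ/+ minus wild type, horizontal axis) of the measured genes of each of the 9 lists (rows), orange for passed and higher, blue for passed and lower, grey for not passed, with a bar at the list median; vertical scatter within a row has no meaning. Genes past 1.2 log2 units are named. The medians lie between −0.17 and 0.18, and the pigment and other MITF targets spread most widely, with Ednrb at −3.68 and Ppargc1a at 2.71.

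Of 17 measured relatives and partners of LEF1 and Wnt feedback targets 4 rose, 1 fell and 12 did not pass (median 0.05). Of the list 29.4% passed, beside 13.4% of all genes and 18.7% of brighter genes. The TCF genes Tcf7l2 (1.05, adjusted p 0.00325) and Tcf7l1 (0.81, adjusted p 0.000313) rose, as did Znrf3 (1.54, adjusted p 0.000253), which limits Wnt receptors, and the corepressor gene Tle4 (0.80, adjusted p 0.0137). Tcf7l1 lies on chromosome 6 and passed relative to both the median shift of the brighter genes there (0.58, adjusted p 0.00674) and their median level (0.38, adjusted p 0.0355). Axin2, a feedback target of beta-catenin, fell by 0.35 (adjusted p 0.0491). Its call was lost with any array other than wild-type replicate 2 left out (adjusted p up to 0.173). Tle4 lost its call without LacZ/+ replicate 2 (0.0624). Leaving out wild-type replicate 2 gave 4 higher and 3 lower, beside 19.0% of all genes that passed then. The corepressor genes Tle1 (−1.11, adjusted p 0.00106) and Tle2 (−0.43, adjusted p 0.019) were lower in that setting and did not pass with all arrays. Of 7 AP-2 relatives and cofactors 2 rose and 5 did not pass: Cited2, a coactivator gene of AP-2 (1.28, SE 0.27, adjusted p 0.0167; 0.92 without wild-type replicate 2), and Kctd15, an inhibitor gene of AP-2 (0.66, adjusted p 0.00103). Cited2 lost its call without any 1 of the LacZ/+ arrays (adjusted p up to 0.0644). Of the AP-2 list 28.6% passed, beside 13.4% of all genes and 18.7% of brighter genes. Leaving out wild-type replicate 2 gave 2 higher and 1 lower, Kctd1 (−0.40, adjusted p 0.0117), beside 19.0% of all genes.

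Neither the relatives of Irf4 nor those of Pax3 passed, beside 13.4% of all genes and 18.7% of brighter genes. With lists of 9 and 8 genes, a count of 0 is not read as a trait of these families. Of 9 measured IRF genes and IRF4 partners 0 passed by limma, and 1 had an unadjusted p below 0.05, as did 24.9% of all genes. That gene was Irf7, a factor of the interferon response, at 6.21 in LacZ/+ and 6.49 in wild-type cells (−0.28, adjusted p 0.0984), and −0.36 (adjusted p 0.0127) without wild-type replicate 2. Irf9, of the same response, averaged 8.07 ± 0.07 in LacZ/+ and 8.35 ± 0.46 in wild-type cells (SD, n = 3 each; −0.28, adjusted p 0.455), but −0.53 (adjusted p 0.0107) without wild-type replicate 2. Irf2 differed by −0.14 (adjusted p 0.632). Of 8 PAX genes 0 passed by limma and 0 had an unadjusted p below 0.05, with Pax5 at 6.18 in LacZ/+ and 6.17 in wild-type cells and Pax7 at 6.13 in LacZ/+ and 6.06 in wild-type cells. With single arrays left out, 16 of the 31 genes that passed in these lists kept their calls throughout and 15 lost them at least once, none of them (0) on leaving out wild-type replicate 2.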

How the data were processed

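RNA of 2 melanocyte lines was hybridised to 1-colour Affymetrix arrays, 3 per line. The values deposited by the authors are log2 signals, for which RMA and Partek are named per the submitters' processing notes, without versions or settings. RMA subtracts background, brings the arrays to a common scale and summarises each probe set. Of 41345 probe sets 23521 had 1 gene symbol in the platform annotation, 1814 several and 16010 none; the brightest probe set of a gene over all arrays was used. Array medians lay between 5.72 and 5.79, and no pair of arrays was identical (0 pairs). Positions and promoter sequences are from RefSeq (GRCm38.p6). The number of arrays limits the precision.

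LacZ/+ was set against wild type by limma 3.58.1 (R 4.3.3; a linear fit with eBayes, 2-sided, 7.87 total degrees of freedom, adjusted p below 0.05 over 22180 genes, no filter on dim genes), checked on simulated data. Single genes were also tested with an exact 2-sided permutation test. No replicate block was used. Named were the 10 genes and up to 4 passing genes in each direction per list (where none passed, the 2 brightest). Also named were Sox10, Cdkn2a and the 5 genes most like Mitf. Other genes named as not passing, marker genes and the further neighbours of Mitf were chosen after their values were seen. The genes and lists were chosen with earlier results of these data known. Listed genes with no probe set of 1 symbol were not analysed here. Tried as alternatives were other scalings (median or quantile), a filter on dim genes, means over probe sets, other variance models, array weights, a replicate block, leaving out each array, and differences relative to the chromosome. The 2 versions of the last on brighter genes (their median level or their median shift), and a fit without chromosome 6, were chosen after seeing the data.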

Additional observations from a re-analysis of the deposited data

How the results depend on the processing

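Tfec and Irf4 passed, and Tfe3, Tfeb, Tfap2a, Tfap2b and Tfap2c did not pass, under all alternatives run in which they were tested. Mitf passed under all but the difference relative to the median level of brighter chromosome 6 genes (0.25, adjusted p 0.0565; 5.07e-05 to 0.0565 over all), which takes off 0.43 where the median shift of these genes takes off 0.23 (0.44, adjusted p 0.00426). Pax3 passed with array weights (0.27, adjusted p 0.0428), with an eBayes trend (0.26, adjusted p 0.0388) and without wild-type replicate 3, and ranged from 0.22 to 0.33 with single arrays left out. Lef1 ranged from −0.43 to −0.14 and passed without wild-type replicate 2. The count of genes that passed was 1717 (1009 higher, 708 lower) with unmoderated variances, and 1768 to 4222 (979 to 2308 higher, 779 to 1914 lower) with single arrays left out, against 2967. With dim genes left out, 36.9% of the 710 brighter chromosome 6 genes were higher, against 33.7% of the same genes in the main fit. The 20.6% given above is of all 1201 chromosome 6 genes, dim ones included. With single arrays left out, passing genes numbered 0 to 5 for control of MITF and TFE localisation, 0 to 5 for regulators of Mitf, 2 to 8 for TFEB and TFE3 targets, 3 to 7 for the LEF1 list, 1 to 3 for the AP-2 list and 0 to 2 for the IRF list. With unmoderated variances they numbered 1 for regulators of Mitf, 3 for pigment targets, 2 for the LEF1 list and 1 for the AP-2 list. Array weights gave 5 for localisation and 1 for the IRF list. Same-numbered arrays did not deviate together (r 0.007, 0.02 and −0.004), so the numbers were not taken to pair them. The replicate block left 0 of 3 localisation genes and 2512 genes in all, and gave Mitf 0.67 (adjusted p 0.00289), Tfec 2.93 (3.76e-06) and Irf4 −3.25 (0.000135); it changed no call among the 10 genes and left 26 of 31 list genes past the threshold. The causes of these shifts were not tested. Dim probe sets (Tfap2c, Tfec in wild type, Irf4 in LacZ/+) limit what size of change can be read.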
